A study of Mus musculus with 19 samples.

Results

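The 10 genes described here encode enzymes of glycolysis and of glycogen breakdown, and they fall into isoforms known from muscle fibres and isoforms used by most other cells. They were chosen by name, as the 10 rows of the expression table whose gene symbol was Eno3, Pgam2, Pfkm, Pygm, Eno1, Pgam1, Pfkl, Pfkp, Aldoa or Ldha, out of 23846 genes listed. Every one of the 10 was measured in all 19 libraries and passed the filter on low values. RNA was sequenced from hindlimb muscle of C57BL/6J mice, all of which had been injected with 2.5 mg tamoxifen in oil on each of 5 days from 8 weeks of age and then left for 10 days. The 5 groups were the lineage positive fraction (LinPos, 4 libraries), labelled as endothelial and blood-derived mononuclear cells, the lineage negative fraction (LinNeg, 4), its Sca1 positive part (LinNegSca1Pos, 3), labelled as the mesenchymal progenitor fraction, its Sca1 negative part (LinNegSca1Neg, 4), and Whole (4). The title of the Whole samples speaks of a suspension of mononuclear cells, whereas the matching columns are headed whole muscle, and it is unclear from this which material gave the RNA. No Cre driver or floxed allele is named for these mice in the labels, nor the surface proteins of the lineage gate.

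Glycolysis splits glucose or stored glycogen into pyruvate, and several of its steps are catalysed by related proteins that separate genes encode. Glycogen phosphorylase releases glucose phosphate from glycogen, phosphofructokinase commits the sugar to glycolysis, aldolase cleaves it, phosphoglycerate mutase and enolase act on the resulting acids, and lactate dehydrogenase turns pyruvate into lactate. Adult muscle fibres, which must make ATP fast during contraction, use the muscle isoforms PFKM, PYGM, PGAM2 and the beta enolase ENO3, while ENO1, PGAM1, PFKL and PFKP are the forms found widely in other tissues. Aldolase A and lactate dehydrogenase A are abundant in muscle and also present in many other cells. Inherited loss of human PFKM, PYGM or PGAM2 causes muscle glycogen storage diseases.

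The libraries differed in how much RNA of myofibre markers they held. Of 20 myofibre markers without any glycolytic gene, 19 were measured (Myh4 held a status word in place of a value), and their sum made up 0.0262 to 0.0659% of all FPKM (a level per transcript length and library size, as deposited) in the LinPos libraries. It was 0.616 to 3.20% in LinNeg, 0.0185 to 0.0905% in LinNegSca1Pos, 1.11 to 7.84% in LinNegSca1Neg and 23.3 to 27.3% in Whole. The skeletal actin gene Acta1 averaged 24.1 FPKM in LinPos, 28.2 in LinNegSca1Pos and 13287 in Whole. The gates stood as labelled: Pecam1 and Ptprc were highest in LinPos, with means of 303 and 131 FPKM against 32.8 and 1.36 in Whole, and Ly6a, which encodes Sca1, averaged 1765 FPKM in LinNegSca1Pos and 51.7 in LinNegSca1Neg. Replicate 3 of LinNeg and replicates 3 and 4 of LinNegSca1Neg held the most fibre marker RNA of their groups. Neutrophil markers also varied within LinPos, from 1.04 to 11.6% of FPKM. The FPKM worth of 1 fragment, a relative measure of depth read from the low values, ranged over 1.89-fold across the 19 libraries.

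The 2 enolase genes lay on opposite sides of Whole in LinPos and LinNegSca1Pos. Eno3 was 453-fold lower in LinPos and 321-fold lower in LinNegSca1Pos than in Whole by mean FPKM, while Eno1 was 2.11-fold and 2.15-fold higher in the same 2 fractions. Eno3, the beta enolase of muscle (plus strand of chr11:70657176-70662513 in mm10, the build of all loci given here), had 11.6, 9.59, 9.32 and 5.10 FPKM in the 4 LinPos libraries, 63.3, 69.6, 228 and 74.9 in LinNeg, 19.7, 8.40 and 9.59 in LinNegSca1Pos, 143, 132, 387 and 478 in LinNegSca1Neg and 3317, 4347, 4078 and 4389 in Whole. Every Whole library lay above every sorted library, and the LinNeg and LinNegSca1Neg libraries lay above those of LinPos and LinNegSca1Pos. Replicates 3 and 4 of LinNegSca1Neg stood above replicates 1 and 2. On the log2(FPKM + 1) scale, which understates changes of low genes, the difference was -8.71 ± 0.44 (SE; adjusted p = 4.6e-12) for LinPos minus Whole and -4.26 ± 0.47 (SE; adjusted p = 6.54e-07) for LinNegSca1Pos minus LinNegSca1Neg, by limma with p values adjusted over 14043 genes. In such bulk samples fewer cells of a type and less RNA per cell cannot be told apart.

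Eno1, the alpha enolase found in most tissues (plus strand of chr4:150237197-150248873), had 106, 81.3, 59.4 and 55.7 FPKM in LinPos, 45.1, 38.8, 26.6 and 25.4 in LinNeg, 57.6, 122 and 51.2 in LinNegSca1Pos, 57.3, 71.4, 33.5 and 50.6 in LinNegSca1Neg and 33.0, 36.7, 31.8 and 41.6 in Whole. The LinPos and LinNegSca1Pos libraries lay above those of Whole without overlap, whereas LinNeg and LinNegSca1Neg overlapped Whole. Limma gave a log2 difference of 1.02 ± 0.29 (SE; adjusted p = 0.00372) for LinPos minus Whole and of 0.98 ± 0.31 (SE; adjusted p = 0.00928) for LinNegSca1Pos minus Whole. Without LinNegSca1Pos replicate 2, whose Eno1 was the highest of its group, the second of these was 0.60 with an adjusted p of 0.0945. Eno1 did not pass the threshold in LinNeg against Whole, with an interval of -0.70 to 0.49, or in LinNegSca1Neg against Whole, with an interval of -0.08 to 1.12.

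Part of the Eno1 signal was listed under Gm5506, a near-identical copy of Eno1, so reads of the pair may be split between them. The table has 2 rows of that name: the row that overlaps the Eno1 locus holds status words, and the values used here are those of the other row, which lies on another chromosome. Gm5506 held 13.8, 16.2, 46.5 and 42.6% of the summed FPKM of both in the LinPos libraries, 15.4, 21.1, 46.9 and 45.6% in LinNeg, 21.0, 13.2 and 29.3% in LinNegSca1Pos, 15.4, 19.7, 45.4 and 31.7% in LinNegSca1Neg and 13.4, 15.9, 14.0 and 13.6% in Whole. Replicates 3 and 4 of LinPos, LinNeg and LinNegSca1Neg were higher in this share than replicates 1 and 2, and why was not tested. The sums varied less within LinPos and LinNeg than Eno1 alone: 107 ± 12.5 FPKM in LinPos and 49.8 ± 2.73 in LinNeg (SD, n = 4 each), against 75.6 ± 23.1 and 34.0 ± 9.56 for Eno1 alone. With both summed, LinNegSca1Neg was also called higher than Whole, by 0.79 on the log2 scale (limma adjusted p = 0.00113), and LinNeg minus Whole was 0.26 in place of -0.10, and not past the threshold.

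**Figure D1:**
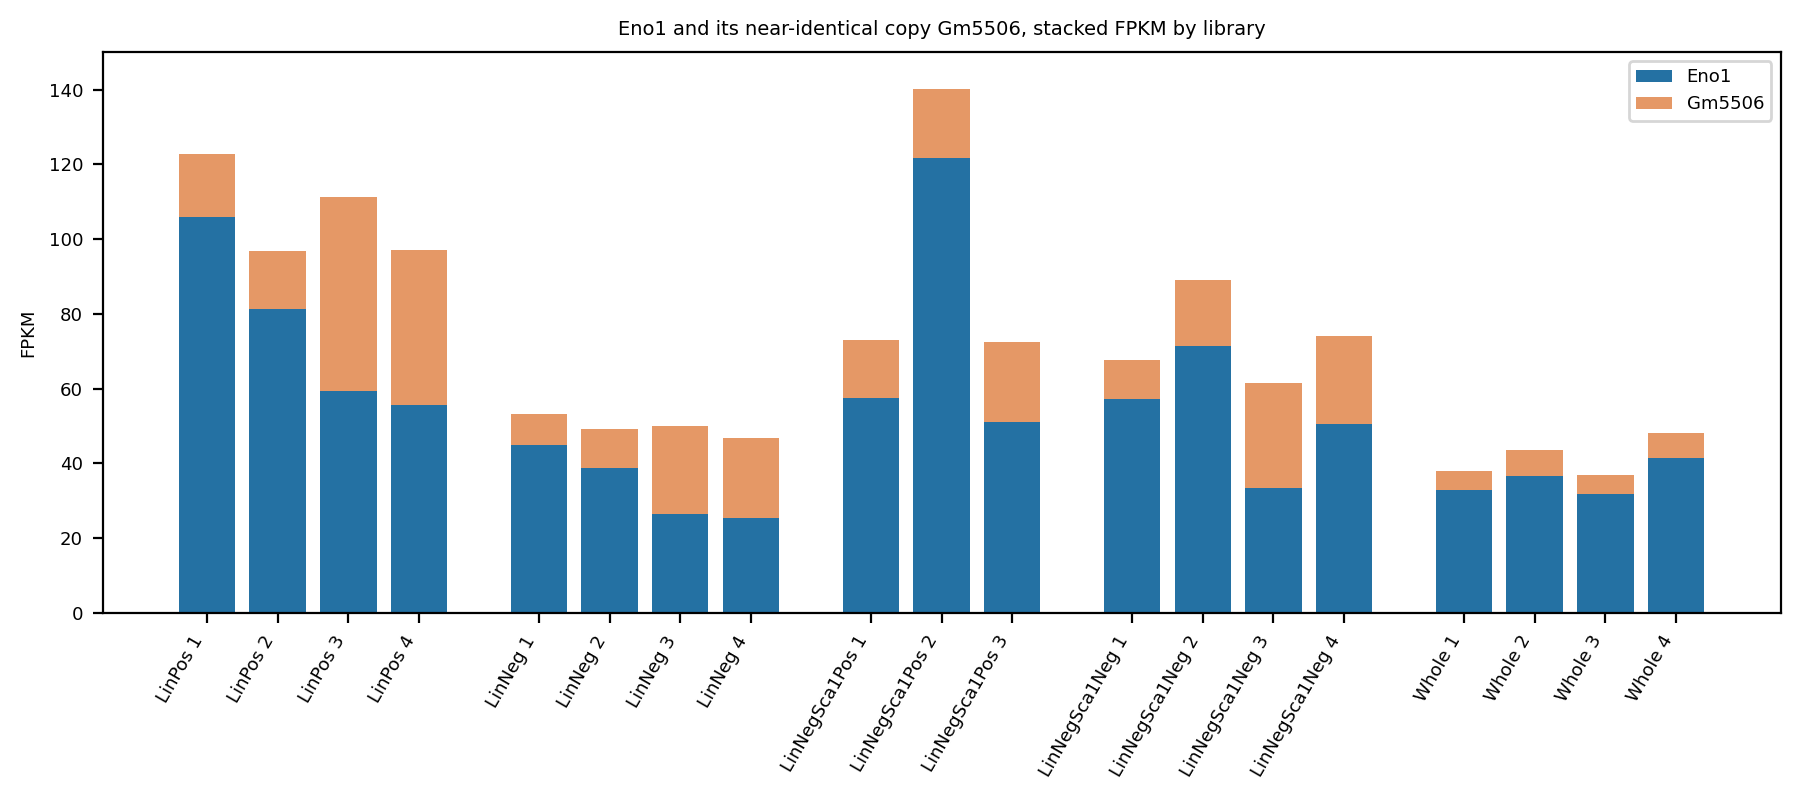
FPKM of Eno1 (lower part of each bar) and of its near-identical copy Gm5506 (upper part), 1 bar per library, grouped by fraction. Gm5506 takes 13.4 to 15.9% of the pair in Whole and up to 46.9% in LinNeg, and the summed bars of LinNeg are nearly level at 46.7 to 53.3 FPKM.

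Of the 10 genes the mutase gene Pgam2 had the widest fold in LinPos against Whole. Pgam2, the muscle form (minus strand of chr11:5801637-5803796), had 2.37, 1.86, 5.58 and 2.10 FPKM in LinPos, 35.5, 48.1, 227 and 72.8 in LinNeg, 7.73, 2.87 and 1.89 in LinNegSca1Pos, 93.1, 88.2, 441 and 498 in LinNegSca1Neg and 2143, 2189.7, 1869.5 and 1957 in Whole. Whole was higher than every sorted library, and the lowest values were those of LinPos and LinNegSca1Pos. By mean FPKM Pgam2 was 684-fold lower in LinPos than in Whole and 67.2-fold lower in LinNegSca1Pos than in LinNegSca1Neg. Without LinNegSca1Pos replicate 1, the highest of its group, the second fold was 117.5. The log2 differences were -9.09 ± 0.59 (SE; adjusted p = 1.26e-10) and -5.49 ± 0.63 (SE; adjusted p = 1.07e-06) by limma.

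Pgam1, the form made in most tissues (plus strand of chr19:41911871-41918665), ran the other way, with 55.0, 54.6, 68.5 and 42.2 FPKM in LinPos, 46.7, 62.5, 42.8 and 46.5 in LinNeg, 67.5, 87.5 and 71.9 in LinNegSca1Pos, 50.0, 80.4, 43.3 and 37.4 in LinNegSca1Neg and 12.1, 10.6, 13.4 and 13.4 in Whole. All 15 sorted libraries lay above all 4 Whole libraries. The mean was 4.46-fold higher in LinPos, 4.02-fold in LinNeg, 6.13-fold in LinNegSca1Pos and 4.28-fold in LinNegSca1Neg than in Whole, with limma adjusted p values from 1.21e-08 to 1.63e-07. LinPos and LinNeg overlapped (log2 difference 0.14, interval -0.29 to 0.57). LinNegSca1Pos exceeded LinNegSca1Neg by 0.56 ± 0.22 (SE; adjusted p = 0.0386), although their libraries overlapped. Of 21 fits, this one included, 10 gave the call. It was lost with no filter, under quantile normalization, with the replicate block, in a fit of these 2 groups and with the block in that fit (log2 differences of 0.42 to 0.56, adjusted p from 0.0504 to 0.194). It was also lost without any 1 of 5 libraries, namely replicates 1, 3 and 4 of LinNegSca1Neg and 2 and 3 of LinNegSca1Pos, with adjusted p values of 0.0629 to 0.145 and log2 differences of 0.42 to 0.60, and with replicates 1 and 2 of LinNegSca1Neg alone (0.24, adjusted p = 0.334).

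The stretches upstream of the start sites of these 2 pairs are shown because the muscle and the general isoform of each enzyme differ there in CG content. Each is the 250 bases before the RefSeq start site (build GRCm38.p6), 5′ to 3′ on the strand of the gene, and every CG dinucleotide is in capitals.
Eno3 (chr11:70656926-70657175, plus strand): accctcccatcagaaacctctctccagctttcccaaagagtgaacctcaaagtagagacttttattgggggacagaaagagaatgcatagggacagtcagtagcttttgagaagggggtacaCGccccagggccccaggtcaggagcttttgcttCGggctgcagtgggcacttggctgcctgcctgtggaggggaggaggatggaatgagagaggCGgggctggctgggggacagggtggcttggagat
Eno1 (chr4:150236947-150237196, plus strand): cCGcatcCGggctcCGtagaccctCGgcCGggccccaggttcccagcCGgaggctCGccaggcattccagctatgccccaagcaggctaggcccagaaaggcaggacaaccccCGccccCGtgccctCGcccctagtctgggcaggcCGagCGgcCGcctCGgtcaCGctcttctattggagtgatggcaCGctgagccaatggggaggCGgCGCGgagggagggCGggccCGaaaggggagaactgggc
Pgam2 (chr11:5803797-5804046, minus strand): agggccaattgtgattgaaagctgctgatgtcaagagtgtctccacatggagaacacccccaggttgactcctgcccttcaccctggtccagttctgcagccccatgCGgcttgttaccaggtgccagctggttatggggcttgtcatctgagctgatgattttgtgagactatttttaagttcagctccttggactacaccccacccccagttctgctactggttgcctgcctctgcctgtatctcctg
Pgam1 (chr19:41911621-41911870, plus strand): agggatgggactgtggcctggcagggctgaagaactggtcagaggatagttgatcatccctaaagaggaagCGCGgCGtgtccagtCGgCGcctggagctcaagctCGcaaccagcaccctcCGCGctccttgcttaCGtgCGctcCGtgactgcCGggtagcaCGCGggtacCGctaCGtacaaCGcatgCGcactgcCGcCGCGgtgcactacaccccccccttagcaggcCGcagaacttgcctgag
Eno3 and Pgam2 hold 3 and 1 CG dinucleotides in these windows, and Eno1 and Pgam1 hold 21 and 22. Over all 10 genes the 4 muscle isoforms had 1 to 4, the 4 general isoforms 13 to 22, Aldoa 0 and Ldha 25, and the median of 32851 such windows was 6. Of all windows, 44.4% had at most 4 and 31.5% had at least 13. Pfkm, Aldoa, Eno1 and Ldha have more than 1 RefSeq start, and the one nearest the edge of the deposited locus was used.

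Both strands of the 10 windows were searched for 5 short motifs, which were chosen after the sequences had been seen. CAGCTG, an E-box of the kind bound by myogenic factors, was found in Pgam2 (bases 125 to 120 before the start) and at 2 places in Pygm, and in 13.0% of all windows. TATTTTTA, a core of the kind bound by MEF2, was found in Pgam2 (bases 79 to 72) and in 2.45% of all windows. GGGCGG, the GC box, was found in Eno1, Pfkp and Ldha and in 32.7% of all windows. ACGTG, the core of hypoxia response elements, was found in Pfkm, Pygm, Pgam1 and Ldha and in 16.6% of all windows, while TATAAA, in 12.4% of windows, was in none of the 10. These motifs do not overlap each other at the places found, apart from ACGTG read on both strands of one site in Pfkm and of 2 sites in Ldha. A match is a description of the letters only.

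Phosphofructokinase has 3 genes. Pfkm, the muscle form (plus strand of chr15:98092589-98132447), had 6.17, 6.42, 5.26 and 4.33 FPKM in LinPos, 16.8, 19.6, 37.0 and 17.5 in LinNeg, 17.0, 12.5 and 15.9 in LinNegSca1Pos, 31.0, 27.0, 48.5 and 79.6 in LinNegSca1Neg and 1688, 1865, 1611 and 1437 in Whole. It was 298-fold lower in LinPos and 35.5-fold lower in LinNegSca1Neg than in Whole, a gap in LinNegSca1Neg wider than those of the other 3 muscle isoforms (7.29 to 14.7-fold). Pfkm was also the muscle isoform with the smallest difference between LinNegSca1Pos and LinNegSca1Neg, -1.44 ± 0.30 (SE; adjusted p = 0.000651) on the log2 scale by limma. These differences between genes were not tested. The Pfkm locus overlaps Senp1 on the other strand, and the libraries were stranded per the labels. GENCODE vM21 also lists Gm26513 there on the strand of Pfkm, and strand cannot separate reads of these 2.

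Pfkp, the platelet form that many tissues share (minus strand of chr13:6579874-6648724, overlapping Pitrm1), had 26.0, 26.8, 34.9 and 32.6 FPKM in LinPos, 24.4, 23.7, 30.4 and 23.0 in LinNeg, 26.6, 21.2 and 25.7 in LinNegSca1Pos, 14.3, 18.0, 16.3 and 15.7 in LinNegSca1Neg and 2.08, 2.66, 2.22 and 2.47 in Whole. No sorted library overlapped Whole, and LinNegSca1Pos did not overlap LinNegSca1Neg. The mean was 12.8-fold higher in LinPos and 6.84-fold higher in LinNegSca1Neg than in Whole, and the log2 differences were 3.20 ± 0.13 (SE; adjusted p = 3.96e-13) and 2.35 ± 0.13 (SE; adjusted p = 6.04e-11) by limma. LinNegSca1Pos exceeded LinNegSca1Neg by 0.57 ± 0.14 (SE; adjusted p = 0.00252), a call lost with the replicate block in a fit of these 2 groups (0.57, adjusted p = 0.0833). Platelet markers made up 0.0630 to 0.526% of FPKM in LinPos and at most 0.00329% in each other group, and Pfkp averaged 30.1 ± 4.38 FPKM in LinPos and 25.4 ± 3.41 in LinNeg (SD, n = 4 each). Its LinPos minus LinNeg difference was 0.23, with an interval of -0.05 to 0.51. The part of platelets in the Pfkp level was not tested.

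Pfkl, the liver form (minus strand of chr10:77986949-78009796), had the lowest mean FPKM of the 10 genes in every group but LinPos, with 7.02, 6.12, 4.54 and 3.79 FPKM in LinPos, 2.16, 2.24, 2.21 and 1.54 in LinNeg, 2.96, 6.15 and 2.20 in LinNegSca1Pos, 3.97, 3.77, 2.99 and 1.70 in LinNegSca1Neg and 1.53, 2.46, 1.02 and 1.96 in Whole. LinPos lay above Whole and LinNeg without overlap, while each other fraction overlapped Whole. Limma called it higher in LinPos than in Whole (1.21 ± 0.25 (SE; adjusted p = 0.00028)) and than in LinNeg (1.04 ± 0.25 (SE; adjusted p = 0.00179)), the second of which was 0.85 with an adjusted p of 0.0678 in replicates 3 and 4 alone. The call in LinNegSca1Pos against Whole (0.74 ± 0.27 (SE; adjusted p = 0.0226)) was lost without LinNegSca1Pos replicate 2 (0.41, adjusted p = 0.197) or without Whole replicate 3 (0.60, adjusted p = 0.0742). In LinNegSca1Neg against Whole it missed the threshold, at 0.57 ± 0.25 (SE; adjusted p = 0.0513). Of 22 fits, that one included, 6 passed. They were those without LinNegSca1Neg replicate 4 (0.76, adjusted p = 0.0133) or without Whole replicate 2 (0.69, adjusted p = 0.0323), with a pseudocount of 0.1 (0.80, adjusted p = 0.0411), with the replicate block (0.57, adjusted p = 0.0167), of these 2 groups (0.57, adjusted p = 0.0459) and with replicates 1 and 2 of LinNegSca1Neg alone (0.86, adjusted p = 0.0137). Under quantile normalization the sign turned (-0.12, adjusted p = 0.653).

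**Figure D2:**
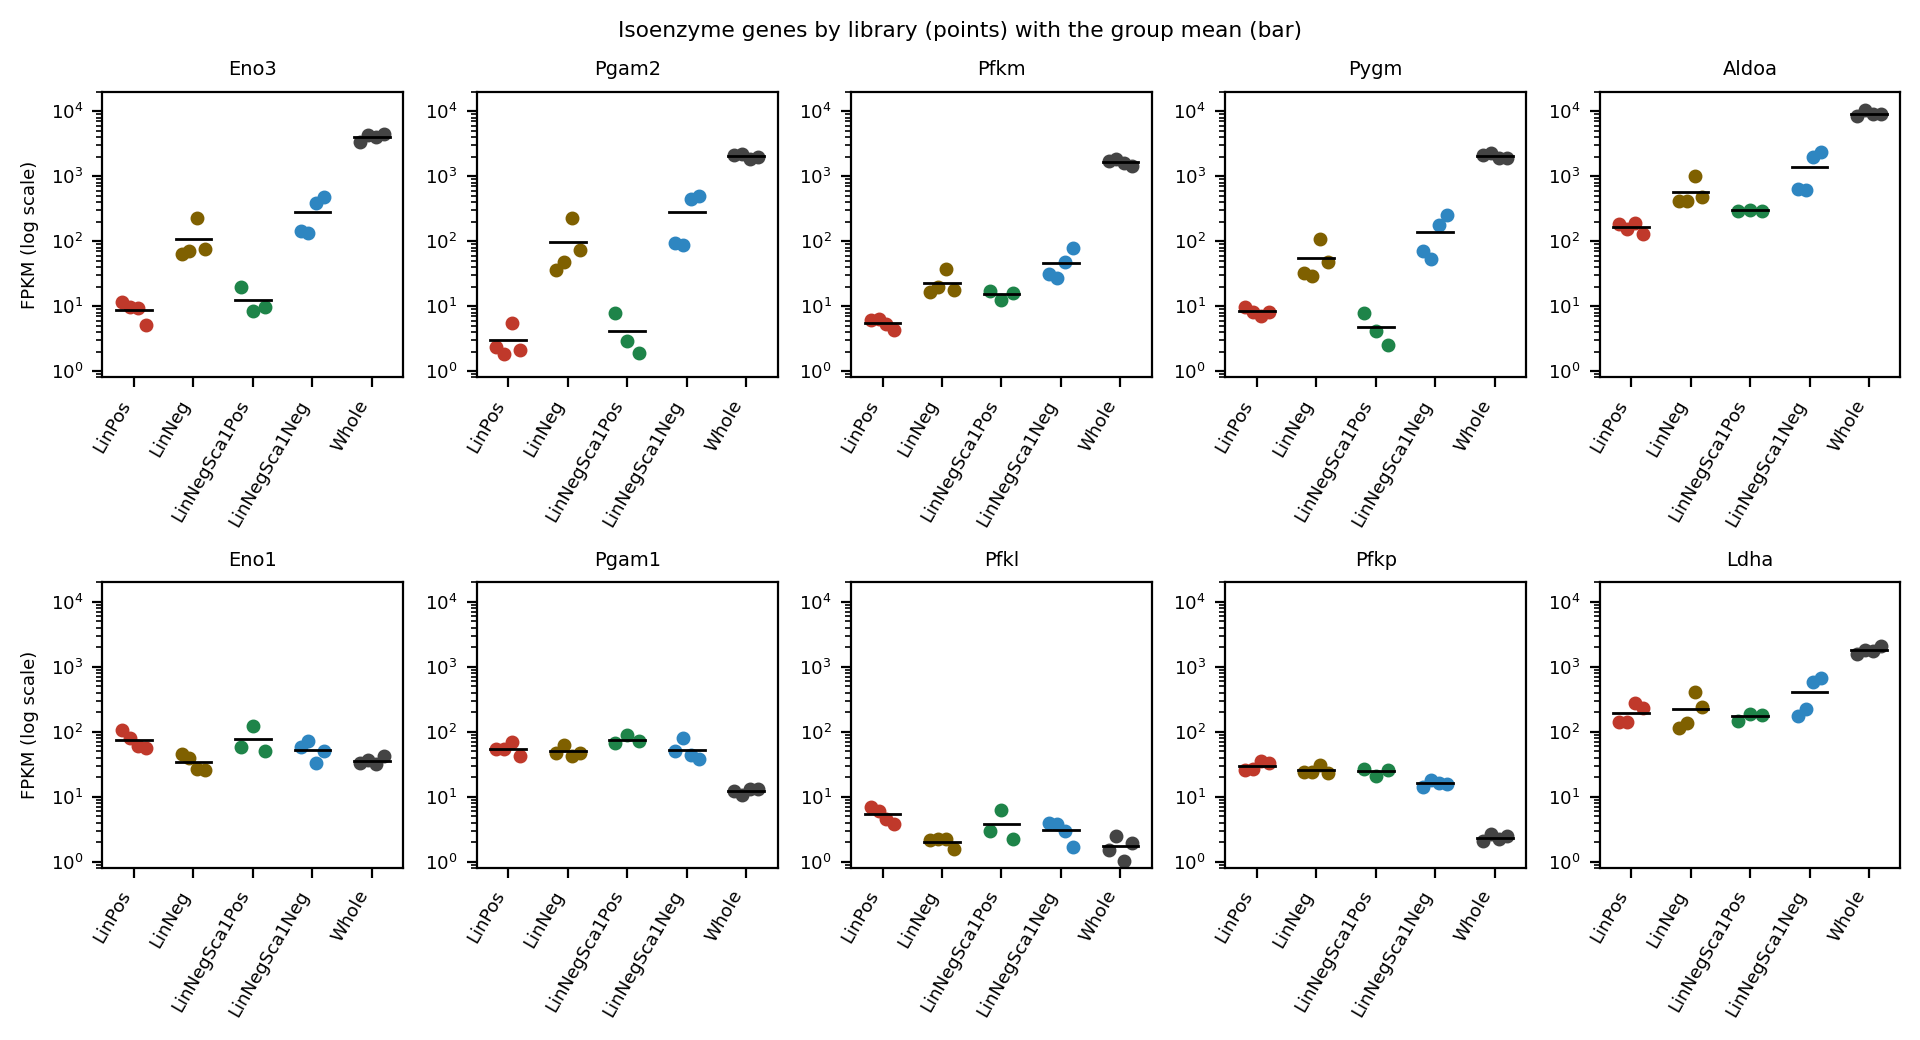
FPKM of the 10 genes (log axis) in each library, by group, with the muscle isoforms and Aldoa in the upper row, the general isoforms and Ldha in the lower row, and the group mean as a bar. The upper row is highest in Whole, with no sorted library overlapping it, Pgam1 and Pfkp are lowest in Whole, and the 4 LinNegSca1Neg points of Eno3, Pgam2, Pygm and Aldoa fall into a lower and a higher pair.

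The muscle gene of glycogen phosphorylase was, like Eno3 and Pgam2, highest in Whole and higher in LinNeg and LinNegSca1Neg than in LinPos and LinNegSca1Pos. Pygm, the muscle form (plus strand of chr19:6384429-6398459), had 9.85, 8.28, 7.11 and 8.18 FPKM in LinPos, 32.8, 29.2, 108 and 47.4 in LinNeg, 7.89, 4.11 and 2.53 in LinNegSca1Pos, 70.8, 52.8, 179 and 254 in LinNegSca1Neg and 2097, 2295, 1878 and 1906 in Whole. It had its lowest mean in LinNegSca1Pos, at 4.84 ± 2.75 FPKM (SD, n = 3) with 8.35 ± 1.13 in LinPos (n = 4), but the 2 groups' libraries overlapped. It was 422-fold lower in LinNegSca1Pos than in Whole and 28.7-fold lower than in LinNegSca1Neg, with log2 differences of -8.55 ± 0.48 (SE; adjusted p = 2.52e-11) and -4.41 ± 0.48 (SE; adjusted p = 4.68e-07) by limma. The brain form Pygb averaged 21.0 ± 4.42 FPKM in LinNegSca1Pos and 2.70 ± 0.35 in Whole, and the liver form Pygl 32.5 ± 4.46 in LinNegSca1Pos and 1.34 ± 0.406 in Whole, differences of 2.56 ± 0.33 (SE; adjusted p = 2.19e-06) and 3.85 ± 0.46 (SE; adjusted p = 6.32e-07). Pygl also separated the 2 Sca1 fractions, with 32.5 ± 4.46 FPKM in LinNegSca1Pos and 3.66 ± 0.888 in LinNegSca1Neg (2.86 ± 0.46 (SE; adjusted p = 4.3e-05)).

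Aldoa and Ldha, which fibres share with other cells, were lower in every fraction than in Whole but stayed abundant. Aldoa, aldolase A (minus strand of chr7:126795234-126800447), had 187, 154, 191 and 130.1 FPKM in LinPos, 422, 422, 1003 and 472 in LinNeg, 292, 307 and 292 in LinNegSca1Pos, 629.9, 622, 1994 and 2356 in LinNegSca1Neg and 8507, 10379, 8961 and 8915 in Whole. It was the most abundant of the 10 genes in Whole, LinNeg, LinNegSca1Neg and LinNegSca1Pos, and in LinPos only Ldha had a higher mean. The mean fell to 165 ± 28.6 FPKM in LinPos, against 9191 ± 818 in Whole (SD, n = 4 each), 55.6-fold lower, with a log2 difference of -5.80 ± 0.39 (SE; adjusted p = 2.29e-10) by limma. Aldoa made up 98.8 to 99.2% of aldolase FPKM in LinPos and at least 99.9% in each other group, and its copy Aldoart1 was listed at no more than 0.198% of the pair in any library. The brain aldolase Aldoc averaged 1.69 ± 0.412 FPKM in LinPos and 0.0975 ± 0.0306 in Whole (1.28 ± 0.11 (SE; adjusted p = 8.53e-09)).

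Ldha, the subunit that favours lactate production (plus strand of chr7:46845804-46855627), had 141, 139, 275 and 231 FPKM in LinPos, 112, 135, 411 and 237 in LinNeg, 147, 189 and 179.6 in LinNegSca1Pos, 176, 225, 582 and 669 in LinNegSca1Neg and 1596, 1829, 1752 and 2053 in Whole. Whole stood above all sorted libraries, and LinPos, LinNeg and LinNegSca1Pos overlapped one another. The log2 difference was -3.25 ± 0.42 (SE; adjusted p = 1.55e-06) for LinPos minus Whole and -0.06 for LinPos minus LinNeg, with an interval of -0.95 to 0.83. LinNegSca1Pos minus LinNegSca1Neg was -1.04 ± 0.46 (SE; adjusted p = 0.0627) and missed the threshold in limma, but it passed with replicates 3 and 4 of LinNegSca1Neg alone, at -1.86 (adjusted p = 4.17e-05), and without LinNegSca1Neg replicate 1 (-1.37, adjusted p = 0.0160) or 2 (-1.26, adjusted p = 0.0362). The partner subunit Ldhb, known from heart and oxidative tissue, averaged 8.12 ± 3.47 FPKM in LinPos, 46.8 ± 14.1 in LinNeg, 10.9 ± 3.25 in LinNegSca1Pos, 129 ± 32.6 in LinNegSca1Neg and 154 ± 14.3 in Whole. Its log2 difference for LinNegSca1Pos minus LinNegSca1Neg was -3.46 ± 0.28 (SE; adjusted p = 1.07e-08), and its difference in LinNegSca1Neg minus Whole, -0.28 ± 0.26 (SE; adjusted p = 0.335), did not pass the threshold.

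Within each enzyme family the muscle isoform's share of the summed FPKM put the groups on one scale. Eno3 made up 10.5% of enolase FPKM in LinPos, 69.9% in LinNeg, 14.5% in LinNegSca1Pos, 79.1% in LinNegSca1Neg and 99.1% in Whole (group means). The enolase sum holds Eno1, Eno2 and Eno3 without Gm5506, so the Eno3 share would be lower with that copy counted. In LinNeg replicate 4, for example, Gm5506 had 21.3 FPKM beside an enolase sum of 102. For Pgam2 the means were 4.93%, 58.0%, 5.34%, 75.4% and 99.4% in the same order of groups. The mean of 5.34% in LinNegSca1Pos rested on replicate 1, at 10.3% with the others at 3.18 and 2.56%, and was 2.87% without it. In both families no LinPos or LinNegSca1Pos library overlapped one of LinNeg, LinNegSca1Neg or Whole. Pfkm differed from them in LinNegSca1Pos: its share was 10.6 to 16.3% among LinPos libraries, 38.7 to 53.2% in LinNeg, 31.5 to 36.5% in LinNegSca1Pos, 55.3 to 82.0% in LinNegSca1Neg and 99.7 to 99.8% in Whole. Pygm ranged over 10.7 to 42.6% in LinPos, and its highest value there, in replicate 4, came with the lowest family total of that group, 19.2 FPKM. In the remaining groups the Pygm share was 36.5 to 73.9% in LinNeg, 4.52 to 12.6% in LinNegSca1Pos, 63.3 to 94.1% in LinNegSca1Neg and 99.7 to 99.8% in Whole.

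**Figure D3:**
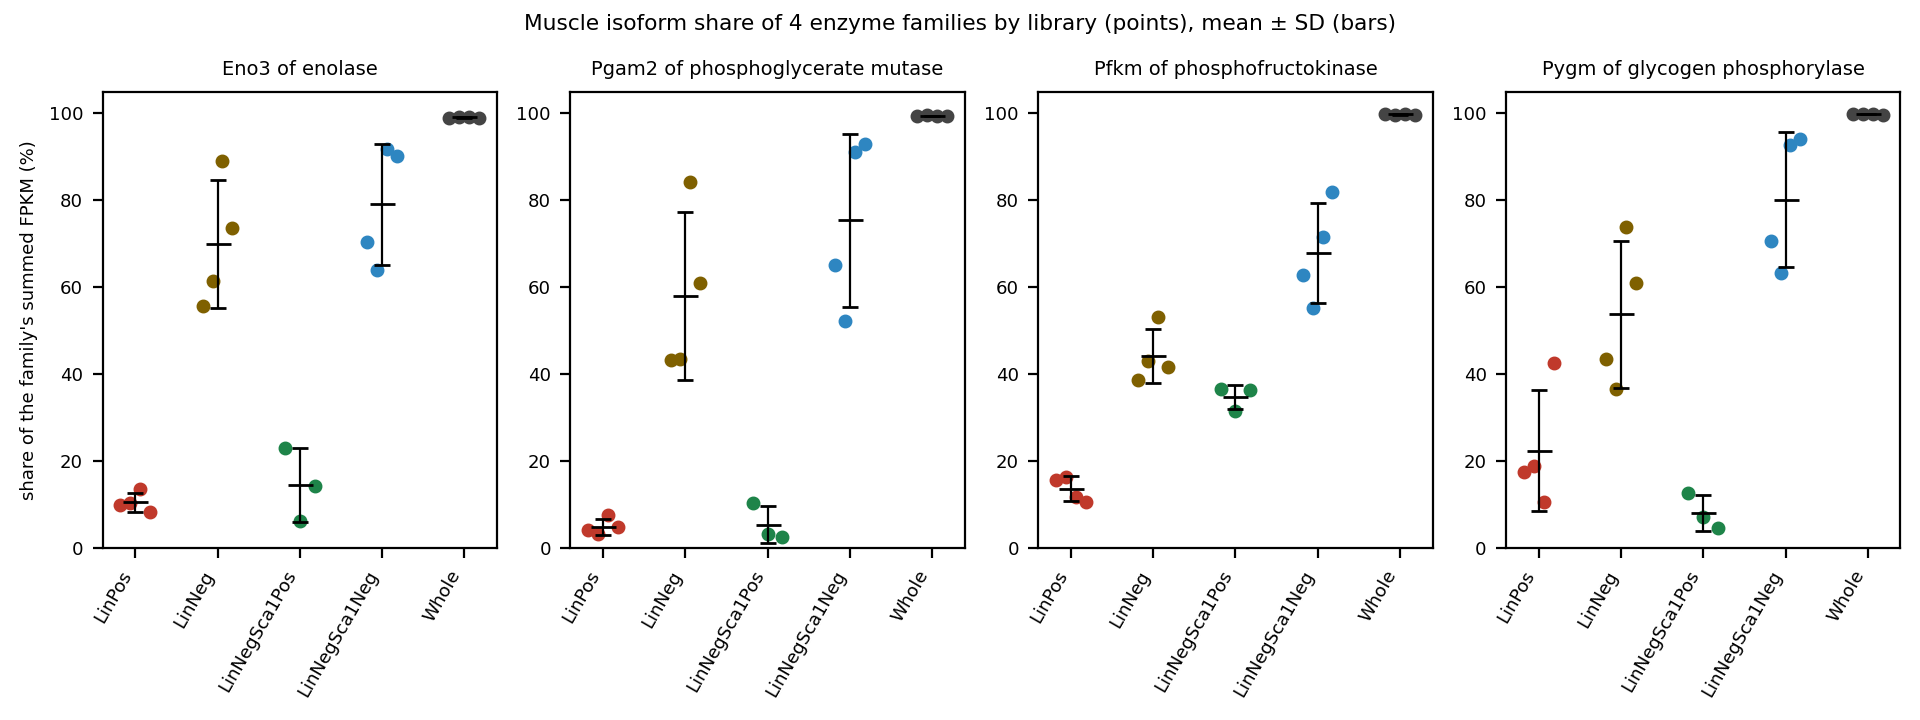
Share of each family's summed FPKM held by the muscle isoform (%), 1 point per library, with the group mean and SD. The enolase sum leaves out Gm5506. All 4 shares lie between 99.0 and 99.8% in the Whole libraries, the LinNeg and LinNegSca1Neg libraries spread from 36.5 to 94.1%, and the LinPos and LinNegSca1Pos libraries reach at most 42.6%.

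The family totals moved too. Summed enolase FPKM, without Gm5506, was 61.0 to 118 among LinPos libraries, 102 to 257 in LinNeg, 67.4 to 136 in LinNegSca1Pos, 203 to 529.9 in LinNegSca1Neg and 3350.1 to 4431 in Whole. Summed phosphofructokinase FPKM was 39.2 to 44.7 among LinPos libraries, 42.1 to 69.7 in LinNeg, 39.9 to 46.6 in LinNegSca1Pos, 48.8 to 97.0 in LinNegSca1Neg and 1441 to 1869.8 in Whole. In both families the total of every sorted library lay below that of every Whole library. Lactate dehydrogenase kept its A subunit in the majority throughout: the Ldha share was 95.4 to 97.5% among LinPos libraries, 76.7 to 86.4% in LinNeg, 91.5 to 96.3% in LinNegSca1Pos, 63.5 to 83.8% in LinNegSca1Neg and 91.4 to 92.8% in Whole, lowest in LinNegSca1Neg.

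Counted over the 10 genes, the 4 muscle isoforms and Aldoa were called lower in all 6 comparisons, and Ldha in the 4 against Whole, by limma at an adjusted p under 0.05. In LinPos minus Whole 6 of the 10 were lower and the 4 general isoforms higher (Eno1 not under median-of-ratios scaling), where 22.9% of the 14043 tested genes were called lower and 48.8% higher. LinNegSca1Pos minus Whole gave the same counts of 6 and 4 (2 higher under either scaling alternative), with 21.6% and 44.0% of all tested genes lower and higher. In LinNeg minus Whole 6 were lower and 2 higher (Pgam1 and Pfkp), with 21.8% and 47.5% of all tested genes. The counts were also 6 and 2 in LinNegSca1Neg minus Whole, with 18.2% and 50.0% of all tested genes. The share of higher members was below that of all tested genes in each, and these 4 comparisons share the Whole libraries.

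Between fractions, LinPos minus LinNeg gave 5 lower members and 2 higher ones, Eno1 and Pfkl, with 25.8% of all tested genes lower and 25.3% higher. LinNegSca1Pos minus LinNegSca1Neg gave 5 lower members and 2 higher ones, Pgam1 and Pfkp, with 32.1% lower and 22.4% higher. The median log2 difference of the 10 genes was -4.53 in LinPos minus Whole, -3.64 in LinNeg, -4.17 in LinNegSca1Pos and -2.66 in LinNegSca1Neg, beside medians over all tested genes of 0.45, 0.43, 0.35 and 0.50. It was -0.89 in LinPos minus LinNeg and -1.24 in LinNegSca1Pos minus LinNegSca1Neg, beside 0.00 and -0.16 over all tested genes.

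The median tested gene was higher in every fraction than in Whole, and some calls of Eno1 and Pfkl changed with the scaling. Median-of-ratios scaling moved the median of all genes in LinPos minus Whole to 0.13, and quantile normalization to 0.04, and the split of calls moved from 6855 higher and 3222 lower to 5521 and 4395, and to 5116 and 4681. Against Whole the splits of higher and lower calls were 6676 and 3062 in LinNeg (5145 and 4364 by median of ratios, 4855 and 4401 by quantiles), 6184 and 3035 in LinNegSca1Pos (4724 and 4429, 4692 and 4292) and 7025 and 2553 in LinNegSca1Neg (4919 and 4134, 4485 and 4306). Pgam1 and Pfkp were called higher than in Whole in all 4 fractions under both. Eno1 lost its call under median of ratios in LinPos (0.55, adjusted p = 0.0928) and in LinNegSca1Pos (0.47, adjusted p = 0.190), and under quantiles in LinNegSca1Pos (0.69, adjusted p = 0.0995). Pfkl lost its call in LinNegSca1Pos under both (0.39 and 0.30, adjusted p = 0.224 and 0.278), and its sign in LinNeg turned (-0.14 and -0.38). Under quantiles the split in LinNegSca1Pos minus LinNegSca1Neg moved from 3146 higher and 4514 lower to 3658 and 3850, and Pgam1 was not called there (0.42, adjusted p = 0.126).

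**Figure D4:**
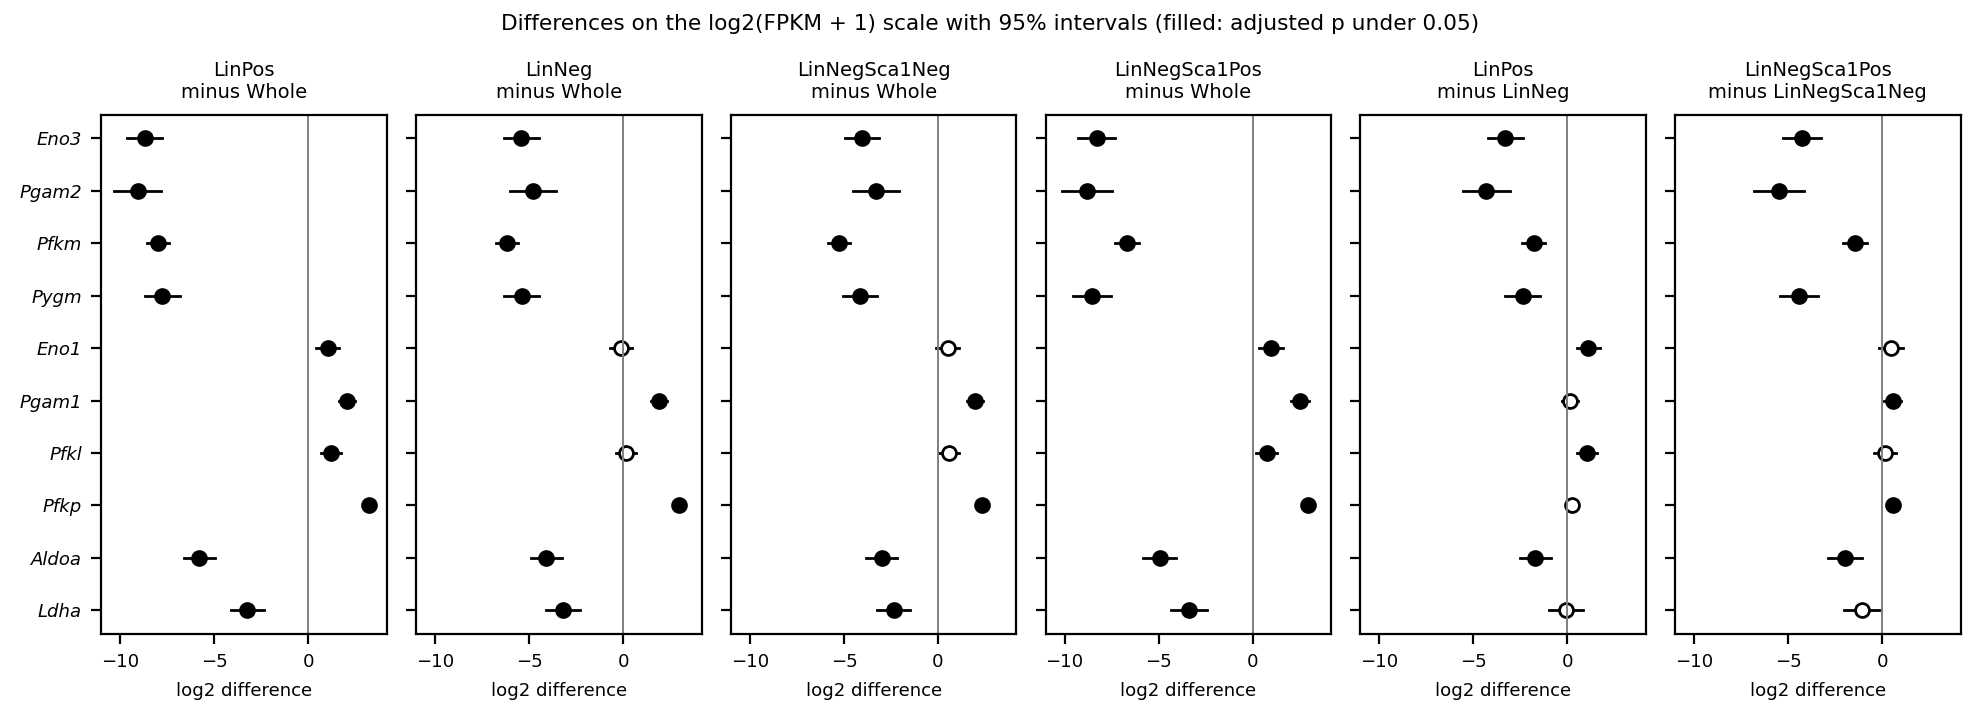
Log2 difference of the 10 genes in the 6 comparisons, on the log2(FPKM + 1) scale, with 95% intervals; a filled point passed an adjusted p of 0.05. Eno3, Pgam2, Pfkm, Pygm and Aldoa are left of 0 in every panel, and Pgam1 and Pfkp are right of 0 by 1.91 to 3.20 in the 4 panels against Whole.

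Eno3, Pgam2, Pfkm and Pygm were highest in Whole, as were the fibre markers, but the ratio of one to the other differed between genes. Not all of them followed the markers within a group. LinPos replicate 3 held the most marker FPKM of its group, 332, and the lowest Pygm, 7.11 FPKM. Pgam2 stood at 14.6 to 20.3 FPKM per 1000 FPKM of the 19 myofibre markers among LinPos libraries, 15.3 to 18.9 in LinNeg, 16.2 to 18.5 in LinNegSca1Pos, 14.4 to 18.8 in LinNegSca1Neg and 14.1 to 17.4 in Whole. Its ratio stayed within 14.1 to 20.3 in all 19 libraries while the markers varied from 98.9 to 138316 FPKM. Eno3 had 28.0 to 98.9 per 1000 among LinPos libraries, 15.6 to 28.9 in LinNeg, 47.0 to 93.7 in LinNegSca1Pos, 13.6 to 28.2 in LinNegSca1Neg and 25.2 to 35.7 in Whole, so the LinNegSca1Pos libraries lay above Whole. Pygm had 21.4 to 84.2 among LinPos libraries, 7.43 to 15.0 in LinNeg, 18.8 to 24.8 in LinNegSca1Pos, 6.30 to 12.7 in LinNegSca1Neg and 13.8 to 18.2 in Whole.

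For Pfkm the ratio was 15.8 to 65.0 among LinPos libraries, 2.54 to 7.70 in LinNeg, 40.5 to 155 in LinNegSca1Pos, 1.70 to 5.76 in LinNegSca1Neg and 10.4 to 14.8 in Whole. Every LinNeg and LinNegSca1Neg library thus had less Pfkm per fibre marker than every Whole library, and every LinPos and LinNegSca1Pos library had more. Aldoa had 574 to 1594 per 1000 in LinPos and 695 to 2855 in LinNegSca1Pos, against 64.5 to 82.5 in Whole. The ratios are descriptions with no test, and the part of fibre RNA in the differences between groups was not tested.

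**Figure D5:**
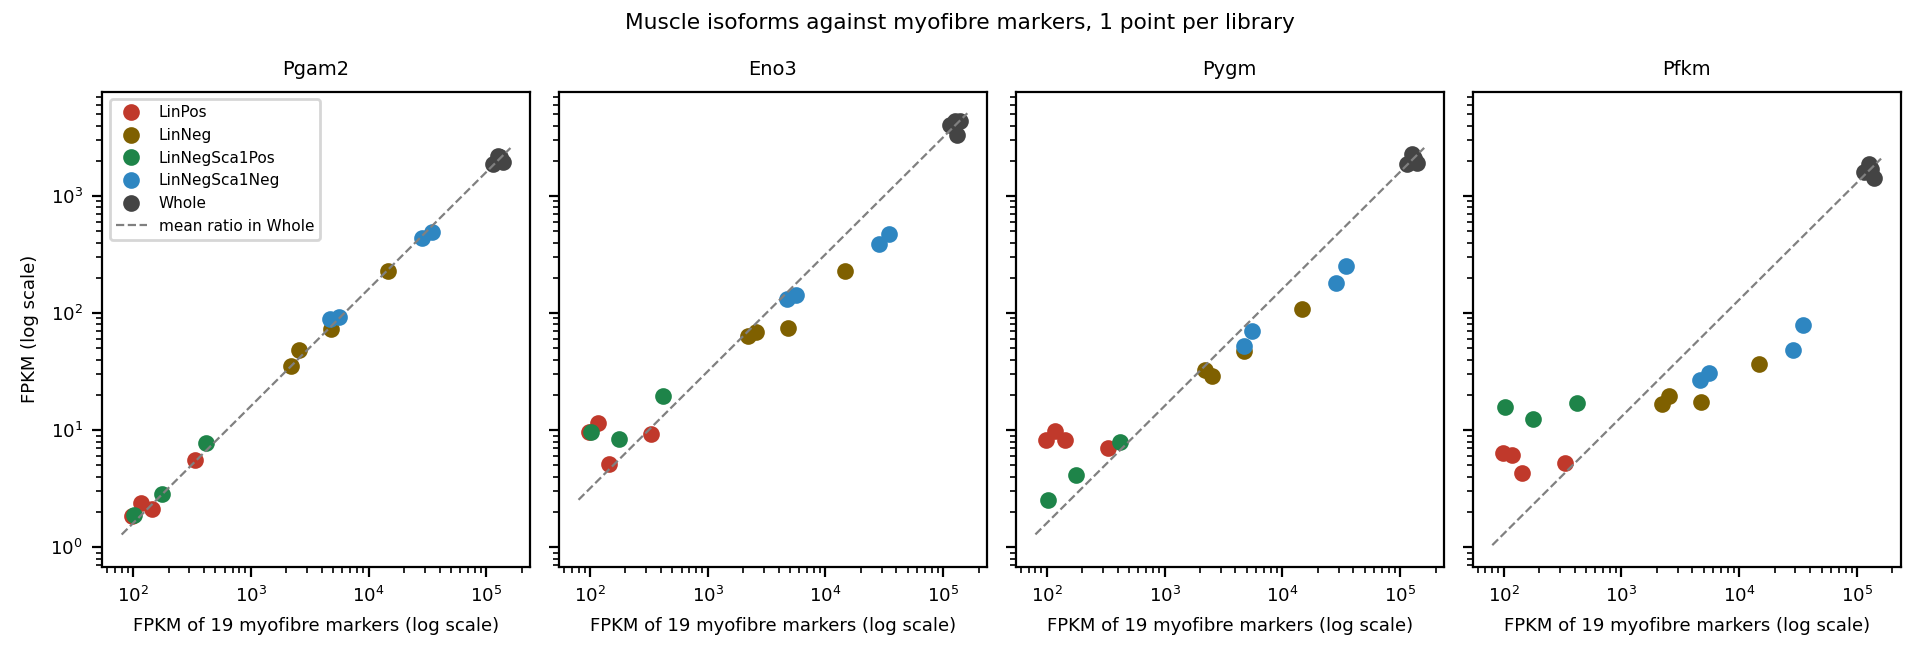
FPKM of the 4 muscle isoforms against the summed FPKM of 19 myofibre markers, both on log axes, 1 point per library, with a dashed line at the mean ratio of the Whole libraries. Pgam2 follows the line at 14.1 to 20.3 per 1000, whereas the Pfkm points of LinNeg and LinNegSca1Neg lie below it and those of LinPos and LinNegSca1Pos above it.

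The rest of the pathway was read from a list of 53 other genes of glycolysis, glycogen and lactate transport, of which 45 passed the filter. In LinPos minus Whole 12 were higher and 29 lower, in LinNeg 9 and 29, in LinNegSca1Pos 8 and 31 and in LinNegSca1Neg 11 and 28, with medians of -2.69, -2.56, -3.31 and -2.10 on the log2 scale. As shares of the 45 these were 17.8 to 26.7% higher and 62.2 to 68.9% lower. Over all tested genes 48.8%, 47.5%, 44.0% and 50.0% were higher and 22.9%, 21.8%, 21.6% and 18.2% lower, so the share of the list called higher was below that of all genes in each comparison and the share called lower above it. The genes lowest in LinPos relative to Whole were Phkg1, the catalytic subunit of muscle phosphorylase kinase (-7.12 ± 0.26 (SE; adjusted p = 8.84e-14) by limma), Slc2a4, the insulin-regulated glucose transporter (-6.42), Ppp1r3a, which targets protein phosphatase to muscle glycogen (-6.30), and the phosphoglucomutase Pgm2 (-5.91). Gys1, muscle glycogen synthase, was among the 4 lowest in LinNeg (-5.30), LinNegSca1Pos (-5.64) and LinNegSca1Neg (-4.42). The largest rises in LinPos were those of Pygl (3.33 ± 0.42 (SE; adjusted p = 1.12e-06)), the hexokinase Hk3 (3.33), the glucose transporter Slc2a3 (2.94) and Pgm1 (2.52). Among the LinPos libraries Pygl ranged over 5.41 to 54.5 FPKM, Slc2a3 over 4.47 to 33.9, Hk3 over 7.50 to 17.9 and Pgm1 over 15.3 to 17.9. Eno2, the neuronal enolase, was higher in LinNegSca1Pos than in Whole by 2.31 ± 0.29 (SE; adjusted p = 1.6e-06), at 6.80 ± 1.22 FPKM in LinNegSca1Pos and 0.571 ± 0.227 in Whole.

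Between LinPos and LinNeg 11 of the 45 (24.4%) were higher and 15 (33.3%) lower, with a median of -0.07, beside 25.3% higher and 25.8% lower over all tested genes, so the share called higher was near that of all genes. The largest rises were in Hk3 (3.42 ± 0.21 (SE; adjusted p = 1.08e-10) by limma), Slc2a3 (2.27), the lactate exporter Slc16a3 (2.16) and Pfkfb3, which makes the activator of phosphofructokinase (2.05). The largest falls were in Ldhb (-2.41), Ppp1r3c (-2.09), Phkg1 (-1.93) and Pgm2 (-1.84). Between LinNegSca1Pos and LinNegSca1Neg 4 (8.89%) were higher and 24 (53.3%) lower, with a median of -0.66, beside 22.4% higher and 32.1% lower over all tested genes. Those 4 were Pygl, Eno2 (1.31 ± 0.29 (SE; adjusted p = 0.0011)), Pfkfb4 (1.15) and Hk2 (0.82), and the largest falls were in Pgm5 (-4.04), Ldhb, Slc2a4 (-3.08) and Ppp1r3c (-2.65). Pgm5 is a phosphoglucomutase relative known from cell adhesion sites of muscle, and pericyte and smooth muscle markers made up 0.00306 to 0.0182% of FPKM in LinNegSca1Pos and 0.362 to 0.652% in LinNegSca1Neg. Their part in the Pgm5 difference was not tested.

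Genes with the pattern most like that of each member were ranked by the root-mean-square difference of centred log2(FPKM + 1) over the 19 libraries, a description in which libraries share preparation and depth. For Pgam2 the nearest were Tnni2 (0.26), Actn3 (0.29) and Myot (0.32), of which Tnni2 and Actn3 encode fast-fibre sarcomere proteins and stand in the marker list. For Eno3 they were Ampd1 (0.32), A930016O22Rik (0.40) and Apobec2 (0.41), for Pygm Ampd1 (0.44), Eef1a2 (0.46) and Klhl41 (0.47), and for Pfkm Cmya5 (0.29), Gpd1 (0.46) and Phkg1 (0.46). Ampd1, the muscle AMP deaminase, headed the lists of both Eno3 and Pygm. Aldoa was nearest to Smtnl2 (0.28), Hspb3 (0.37) and Smtnl1 (0.37). Among the general isoforms Eno1 was nearest to Nek6 (0.26), Iqgap3 (0.31) and Pfkl (0.31), itself one of the 10 genes. Pgam1 was nearest to Tle3 (0.24), Ptbp1 (0.26) and Snx1 (0.26), Pfkl to Ppp4r1 (0.26), Ttll3 (0.27) and Stat3 (0.27), Pfkp to Dock11 (0.22), Ptpra (0.26) and Sri (0.27) and Ldha to Sar1b (0.31), Acot13 (0.35) and Ndufa12 (0.35).

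The order of the 5 groups by mean level separated the 2 kinds of isoform. Eno3, Pgam2, Pfkm and Aldoa ran from LinPos, the lowest, through LinNegSca1Pos, LinNeg and LinNegSca1Neg to Whole. In each of the 4, LinNeg and LinNegSca1Neg overlapped, and LinPos and LinNegSca1Pos overlapped for Eno3 and Pgam2 but not for Pfkm and Aldoa. LinNegSca1Pos and LinNeg overlapped for Pfkm but not for Eno3, Pgam2 and Aldoa. Pgam1 and Pfkp had Whole as the lowest group with no overlap. All sorted neighbours overlapped in the order of Pgam1, and for Pfkp those apart from LinNegSca1Pos and LinNegSca1Neg did. In the orders of Eno1 and Pfkl the libraries of all neighbours overlapped. Pygm differed from the other muscle isoforms in that LinNegSca1Pos came below LinPos, with overlap. For Ldha all neighbours among LinNegSca1Pos, LinPos, LinNeg and LinNegSca1Neg overlapped, and Whole stood apart above them.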

How the data were processed

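Bulk RNA was sequenced from 19 samples in 5 groups, named and numbered from their titles. Stranded poly(A) libraries were made from sorted cells, per the labels' protocols. The values deposited by the authors are FPKM per gene, a unit in which some cells hold status words in place of numbers. The submitters' processing notes name the build mm10 and the tools TopHat2, Bowtie2, Cufflinks and bcl2fastq. No version, role or annotation stands beside these names. Genes with any status word were left out, which kept 23521 of 23846. Left aside were 4 columns that fit the labels of no sample. FPKM carry no counts, so the depth of each library is known only relative to the others, and no counting interval is given.

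Values were taken as log2(FPKM + 1). The 14043 genes at 1 FPKM or more in 3 libraries or more entered 1 limma fit of the 5 groups, two-sided, with a variance trend, empirical Bayes moderation and 14 residual degrees of freedom. In it p values were adjusted by Benjamini and Hochberg within each of 6 comparisons, at a threshold of 0.05. The script was tested on simulated data. The software was limma 3.58.1 in R 4.3.3, and pandas 2.3.3, numpy 2.4.6 and matplotlib 3.10.9 in Python 3.11.15. Isoform shares, ratios and fold changes were computed from FPKM. Loci are those deposited, with starts counted from 1, and strands come from GENCODE vM21. Upstream sequences come from RefSeq.

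All 10 members are named. To these come the other isoforms of their families, the 4 called genes of the pathway list with the largest difference in each direction in each comparison, and 3 genes most like each member. Members and lists were chosen with earlier results of these data known. Whether replicates are separate animals is not said in the labels. The p values therefore reflect the spread among these libraries alone, and that spread may be technical. Samples of LinPos and LinNeg with the same number deviated together (correlations of 0.44 to 0.70). Correlations between samples with different numbers were not computed. Pairing by number therefore cannot be told apart from a difference between replicates 1 and 2 and replicates 3 and 4. In the other comparisons the correlations of samples with the same number ran from -0.35 to 0.18, and the numbers did not pair the samples by that measure. Alternatives were other pseudocounts, filters, scalings, a fit without the variance trend, fits of 2 groups, a replicate block, leaving out each library, and sets of replicates 1 and 2 (set A) or 3 and 4 (set B) of LinPos, LinNeg and LinNegSca1Neg. The sum of Eno1 with Gm5506 and the block in fits of 2 groups were added after seeing the data.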

Additional observations from a re-analysis of the deposited data

Results flagged for a closer look

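Of 40 groups of 4 libraries examined for a single library far from the others (the gap to the nearest, over the range of the group, above Dixon's critical value), 5 held one, where chance gives about 1 in 20. LinNeg replicate 3 was the high library in 3 of them: Eno3 at 228 FPKM with the others at 63.3 to 74.9, Pfkm at 37.0 with the others at 16.8 to 19.6, and Aldoa at 1003 with the others at 422 to 472. This library also held the most myofibre marker RNA of its group, 3.20% of FPKM. Pgam2 in LinPos replicate 3 was high at 5.58 FPKM, with the others at 1.86 to 2.37, and that library had the highest fibre marker share of LinPos, 0.0659%. Pfkl in LinNeg replicate 4 was low at 1.54 FPKM, with the others at 2.16 to 2.24.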

How the results depend on the processing

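Of 60 member differences, 46 kept their direction and side of the threshold in all alternatives run, and of 1240 alternative values 1187 did. Those that did not belonged to Eno1, Pgam1, Pfkl, Pfkp and Ldha. The count of members called higher in LinNegSca1Pos against LinNegSca1Neg, 2, was 1 with no filter, under quantile normalization, with the replicate block, in a fit of these 2 groups and in set A, and 0 with the block in a fit of the 2 groups, which lost Pfkp as well, where LinNegSca1Neg replicate 4 has no partner; it was 1 to 2 when each library was left out. In LinNegSca1Pos against Whole the count of 4 was 2 under median-of-ratios scaling and under quantiles, and 2 to 4 over left-out libraries. In LinNegSca1Neg against Whole the count of 2 was 4 with the replicate block and 4 in set A. In LinPos against LinNeg the count of 2 was 1 in set B, and the replicate block changed no call of a member. These changes of sign were all below the threshold: Pfkl in LinNeg against Whole (-0.14 by median of ratios, -0.38 by quantiles), Pfkl in LinNegSca1Neg against Whole (-0.12 by quantiles), Eno1 in LinNegSca1Neg against Whole (-0.065 by median of ratios), Eno1 in LinNeg against Whole (0.23 in set A, 0.26 summed with Gm5506, and -0.25 to 0.017 over left-out libraries), Pfkl in LinNegSca1Pos against LinNegSca1Neg (-0.019 with the block in 2 groups, -0.11 in set A, and -0.17 to 0.41 over left-out libraries) and Ldha in LinPos against LinNeg (0.19 in set A, and -0.33 to 0.29 over left-out libraries). The cause was not tested. Precision is limited by 3 or 4 libraries a group, by FPKM without counts, by the low level of Pfkl, and by reads that Eno1 may share with Gm5506.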

Other observations

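Hexokinases, which trap glucose in the cell, also differed in form between Whole and the sorted fractions. Hk2, the form known from muscle and fat, averaged 5.96 ± 1.56 FPKM in LinPos, 8.56 ± 1.04 in LinNeg, 6.29 ± 0.716 in LinNegSca1Pos, 3.23 ± 1.08 in LinNegSca1Neg and 96.6 ± 6.30 in Whole (SD, n = 4, and 3 in LinNegSca1Pos). Hk1, which most tissues make, averaged 16.8 ± 3.82, 14.0 ± 2.09, 16.3 ± 1.19, 13.8 ± 2.61 and 2.89 ± 0.586 FPKM in the same order of groups. Between the Sca1 fractions Hk2 ran opposite to the muscle isoforms. It was higher in LinNegSca1Pos than in LinNegSca1Neg, by 0.82 ± 0.20 on the log2 scale (SE; adjusted p = 0.00208 by limma). Hk3 was listed at 12.0 ± 5.05 FPKM in LinPos and 0.228 ± 0.0621 in Whole. Of the genes of lactate and sugar handling, Slc16a3 averaged 9.78 ± 6.64 FPKM in LinPos, 0.946 ± 0.267 in LinNeg and 96.5 ± 18.4 in Whole. It was higher in LinPos than in LinNeg (2.16 ± 0.48 (SE; adjusted p = 0.000891) by limma on the log2 scale), and ranged over 1.44 to 17.6 FPKM among the LinPos libraries. Fbp2, the muscle fructose bisphosphatase, averaged 0.097 ± 0.0875 FPKM in LinNegSca1Pos, 2.53 ± 2.15 in LinNegSca1Neg and 52.8 ± 4.84 in Whole.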
